A study of Mus musculus with 16 samples.

Results

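The hippocampal transcriptome of Kcna1 knockout mice was compared with that of wild type mice, both kept on the standard diet. Of the 16 mouse libraries of the series, 7 entered the comparison, 3 knockout and 4 wild type. The labels give the genotype as Kcna1 KO or wild type, the diet, and hippocampus as the tissue, and they give no age, sex, strain or kind of targeted allele. All 4 animals of each group are separate mice by the tags in the table's header, and libraries are called by those tags below. The 4 other knockout and 4 other wild type libraries were from mice on a ketogenic diet, in which fat replaces most carbohydrate, and they are used here only to set the same genes side by side. The knockout libraries were chosen by their measured Kcna1 level: it had to lie below 60 CPM of all counts in the column (CPM, counts-per-million). Kcna1 stood at 47.9 in KC872RL, 45.5 in KC873RR and 47.1 in KC893RL, against 119, 129, 117 and 115 in the wild type libraries KC890RL, KC894RLL, KC897RR and KC900RLL. The fourth library labelled as a knockout on this diet, KC888LL, lay outside the threshold at 82.2 CPM (95% Wilson interval 78.1 to 86.4, counting error only), between the groups, and was left out. These Kcna1 values are a description, since they decided which libraries were used, and whether the counts left in the knockout come from outside the deleted part was not tested. Values below follow the order of libraries given here.

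Kcna1 encodes Kv1.1, a subunit of voltage-gated potassium channels that sit along axons and at presynaptic terminals, where they limit repetitive firing and transmitter release. Mice that lack it have spontaneous seizures and serve as a model of epilepsy. In an epileptic hippocampus, astrocytes and microglia are known to become reactive, dentate granule cells to change the genes and peptides they express, and immediate early genes, which neurons switch on within minutes of firing, to follow recent activity.

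Total counts were 15746189 to 19261776 in the 3 knockout libraries and 14481657 to 15844164 in the wild type libraries. Levels below are CPM of the effective library size, that is, the total after TMM scaling. Markers of the hippocampal fields were present in every library: the summed level of 10 dentate granule cell genes was 469 to 532 CPM in the knockout and 441 to 653 CPM in the wild type libraries, and that of 9 CA1 pyramidal cell genes was 651 to 726 and 689 to 943 CPM. Choroid plexus RNA varied between libraries of both groups, with Ttr, the thyroxine carrier of that tissue, at 318, 166 and 507 CPM in the knockout and 25.3, 970.2, 250.2 and 15.7 CPM in the wild type libraries. In these bulk samples, fewer cells of a type and less RNA per cell cannot be told apart. Y-linked genes were expressed in KC872RL and KC873RR but not in KC893RL among the knockout libraries, and in KC890RL alone among the wild type libraries, so the groups differed in their balance of sexes. In KC888LL they were not expressed.

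Knockout and wild type hippocampi differed in many genes. With edgeR's quasi-likelihood test, 1016 of 17725 genes (5.73%) passed an adjusted p of 0.05 and are called changed: 511 (2.88%) were higher and 505 (2.85%) lower in the knockout. At an unadjusted p under 0.05 there were 3767, where chance alone gives 886. Rises were larger than falls, with a median log2 fold change of 0.70 over the called higher genes and -0.40 over the called lower genes, and 157 rises but only 37 falls reached an absolute log2 fold change of 1. The CPM of the 3 knockout and 4 wild type libraries did not overlap in 950 of the called genes, against 22.2% of all tested genes. With upper-quartile scaling the split was 594 higher and 382 lower. Protein-coding genes made up 963 of the 1016, and 14717 of the 17725 tested.

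The calls rest on leaving out KC888LL, a choice made from a measured level, and every p-value here is conditional on it. KC888LL lay between the groups in Kcna1 and in Gm13394, described below, and whether its knockout label is right was not tested. With KC888LL kept in its labelled group, 1 of 17469 genes (0.00572%) was called, Kcna1 itself, while 2504 genes had an unadjusted p under 0.05. The 121 called genes other than Kcna1 that met the naming rule then had adjusted p-values of 0.119 to 0.495. KC888LL lay closer to the wild type mean than to the knockout mean in 94.9% of the called genes, against 67.3% of all tested genes. It lay inside the wild type range in 67.1% of the called genes, against 68.8% of all tested genes. The called genes were selected for a difference between the 3 knockout libraries and the wild type, in a fit without KC888LL. The shares of called and of all tested genes are therefore not a like comparison, and no conclusion on KC888LL is drawn from them. With KC888LL kept, the median log2 fold change was -0.50 over the immediate early genes described below, 0.67 over the disease-associated microglia genes, 0.75 over complement and 0.99 over pan-reactive astrocyte genes. Among the 3 knockout libraries, the one farthest in the direction of the fitted change was KC872RL in 63.7% of the called genes (all tested, 43.5%). It was KC893RL in 13.8% (all tested, 26.9%). Without KC872RL 127 genes were called, and with Y-linked expression as a term in the fit 485.

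The smallest p and the largest fall belonged to Gm13394 (ENSMUSG00000083773), a processed pseudogene of the glycolytic enzyme gene Gapdh at chr2:28933610-28934609 (GRCm38), away from Kcna1, which lies at chr6:126640397-126646384. The 1000 bases of its transcript matched 1000 bases of the Gapdh-201 transcript with 1 difference, A438C (the base of Gapdh-201 first, its position counted from the 5′ end of Gapdh-201, then the base of Gm13394). The bases around it are shown, 5′ to 3′ from the GENCODE M21 transcripts, because they hold the base by which reads can be told apart, in capitals.
Gapdh-201: aagggtggagccaaaAgggtcatcatctcc
Gm13394: aagggtggagccaaaCgggtcatcatctcc

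Gm13394 stood at 1.9, 0.931 and 1.27 CPM in the knockout and 109, 117, 122 and 124 CPM in the wild type libraries, and at 57.3 CPM in KC888LL. The groups lay far apart, with a log2 fold change of -6.40 ± 0.18 (SE, adjusted p = 9.93e-13, edgeR). Gapdh itself, at chr6:125161715-125166467 near Kcna1, was at 1094, 1026 and 1205 CPM in the knockout and 854, 888, 946 and 891 CPM in the wild type libraries, a log2 fold change of 0.31 ± 0.06 (adjusted p = 0.00607). Added together, the 2 genes gave 1096, 1027 and 1206 CPM in the knockout and 963, 1005, 1068 and 1015 CPM in the wild type libraries, so the sums of the groups overlapped, while on the ketogenic diet they were 1126 to 1194 CPM in the knockout and 967 to 1021 CPM in the wild type libraries, without overlap. How reads shared by near-identical copies were assigned is not given in the sources used here, and both values are uncertain for that reason. In the ketogenic diet libraries, which the choice of libraries did not use, Gm13394 was at 0.867, 1.35, 0.331 and 0.588 CPM in the knockout and 109, 116, 121 and 125 CPM in the wild type.

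**Figure D1:**
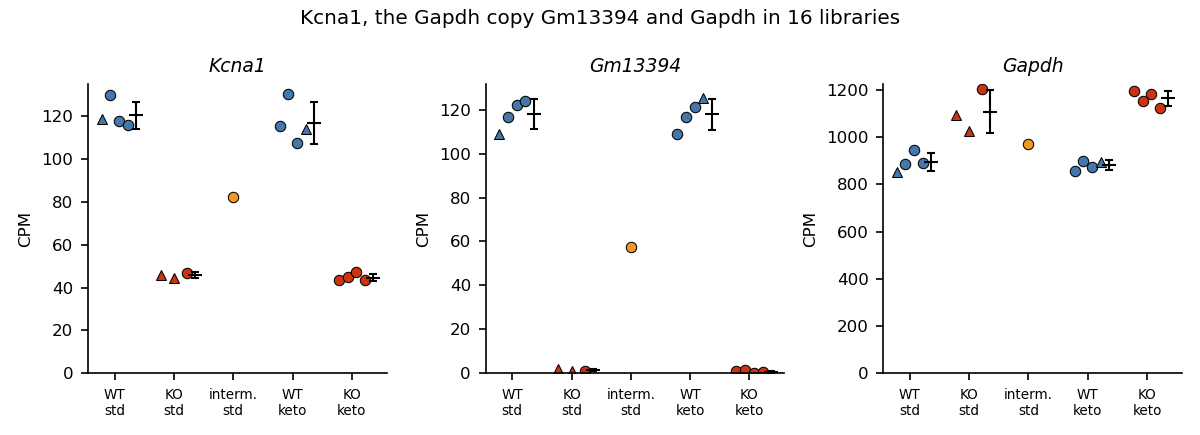
CPM of Kcna1, Gm13394 and Gapdh in each of the 16 libraries, by genotype and diet (std, standard; keto, ketogenic; interm., KC888LL; triangles, libraries with Y-linked expression). Bars show mean ± SD of a group (n = 3 for the knockout on the standard diet, otherwise 4); KC888LL lies between the groups for Kcna1 and Gm13394.

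Genes around Kcna1 were also among the calls. Within 10 Mb of it, 19 of 178 tested genes were called (10.7%), Kcna1 and Gapdh among them, against 997 of 17547 elsewhere (5.68%). This count is a description, because the choice of libraries used Kcna1. Ncapd2, a subunit of the condensin complex that compacts chromosomes, was at 30.3, 24.8 and 27.4 CPM in the knockout and 15.2, 16.4, 17.2 and 15.6 CPM in the wild type libraries (log2 fold change 0.78 ± 0.11, adjusted p = 0.00211, edgeR). Pianp, a ligand of the PILR alpha receptor, was lower, at 80.8, 83.3 and 89.9 CPM in the knockout and 122, 129, 142 and 140.4 CPM in the wild type libraries (log2 fold change -0.65 ± 0.09, adjusted p = 0.00149). Vwf, the clotting factor carrier of endothelial cells, was also higher, with a log2 fold change of 1.69 on the standard and 1.44 on the ketogenic diet. Apobec1, a cytidine deaminase of RNA, rose on the standard diet (log2 fold change 1.93 ± 0.30, adjusted p = 0.00234) and had -0.39 on the ketogenic diet (adjusted p = 0.689). Ncapd2 and Pianp are among the genes of smallest p, which were named only where the groups did not overlap on the standard diet.

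The other genes of smallest p had diverse known roles. Sparc, a collagen-binding protein secreted by glia and vessel cells, was at 456, 418 and 341 CPM in the knockout and 227, 217, 243 and 205 CPM in the wild type libraries (log2 fold change 0.86 ± 0.11, adjusted p = 0.000883, edgeR). Clu, a secreted chaperone made by astrocytes, was at 923, 1065 and 829 CPM in the knockout and 657, 632, 641 and 659 CPM in the wild type libraries (0.54 ± 0.07, adjusted p = 0.000956). Both were highest in KC872RL or KC873RR and lower in KC893RL. That KC893RL was still above every wild type library follows from the naming rule. Phka2, a regulatory subunit of phosphorylase kinase, which starts glycogen breakdown, was at 71.3, 67.2 and 68.3 CPM in the knockout and 46.3, 45.2, 39.7 and 43.6 CPM in the wild type libraries (0.66 ± 0.08, adjusted p = 0.000372). Coq8a, needed for coenzyme Q synthesis, was at 72.7, 66.2 and 84 CPM in the knockout and 45.4, 44.2, 50.9 and 41.4 CPM in the wild type libraries (0.71 ± 0.10, adjusted p = 0.00211), with its highest level in KC893RL. Krt9, Anxa4, Rida, Gpld1, Tgm2, Acyp1 and Ncapd2 completed the 12 rises of smallest p together with Apobec1, and their log2 fold changes were 0.45 (Gpld1) to 1.23 (Anxa4) apart from Apobec1.

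Cck, which encodes the peptide cholecystokinin of interneurons and pyramidal cells, was at 125, 129 and 130.5 CPM in the knockout and 199.6, 181, 223 and 218 CPM in the wild type libraries (log2 fold change -0.68 ± 0.08, adjusted p = 0.000372, edgeR). Rab15, a GTPase of endosomal recycling in neurons, was at 163, 175 and 183 CPM in the knockout and 255, 250.0, 281 and 271 CPM in the wild type libraries (-0.61 ± 0.07, adjusted p = 0.000372). The knockout values of each gene spanned a narrow range. Their place below all wild type values follows from the naming rule. Neurl1a, a ubiquitin ligase of synapses, stood at 140.1, 154 and 156 CPM in the knockout and 197, 209, 204 and 223 CPM in the wild type libraries (-0.47 ± 0.07, adjusted p = 0.00127). Dscaml1, a cell adhesion molecule of neurites, was at 78.9, 86.8 and 83.1 CPM in the knockout and 118, 128, 128 and 115 CPM in the wild type libraries (-0.56 ± 0.08, adjusted p = 0.00211). The other falls of smallest p were 2900026A02Rik, Sbk1, Dok4, Nr4a3, Pianp and Uvrag, between -1.05 (Nr4a3) and -0.42 (Uvrag) on the log2 scale. Each of these genes, and Sparc, Clu, Phka2 and Coq8a, stayed called when any 1 of the 7 libraries was left out and with Y-linked expression as a term.

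**Figure D2:**
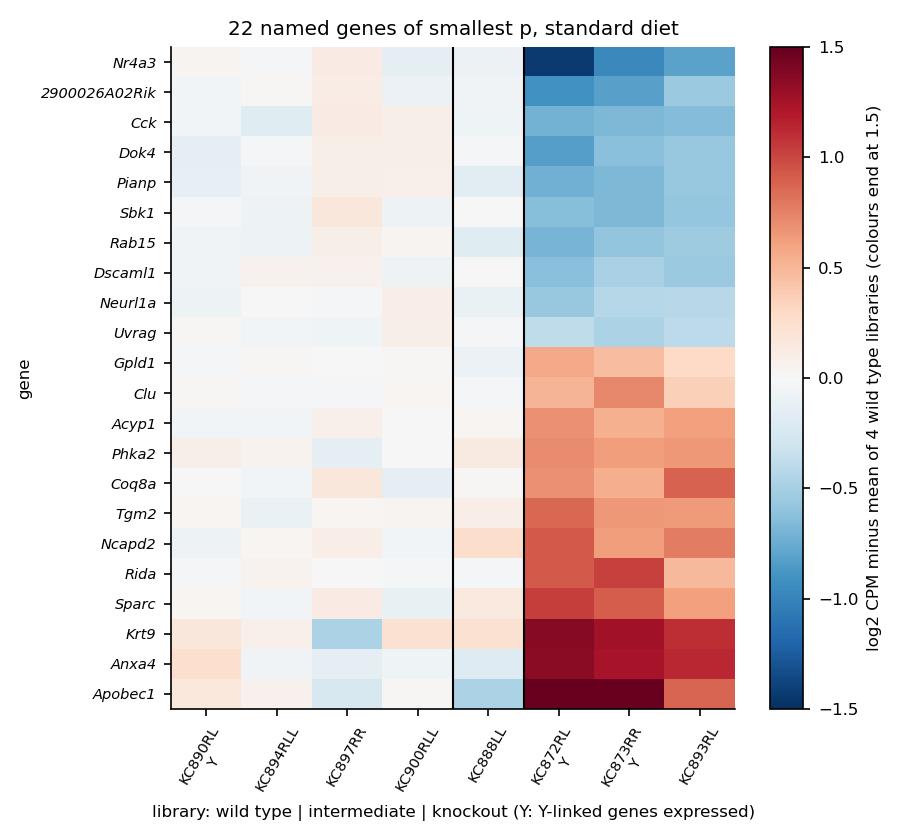
Log2 CPM minus the mean of the 4 wild type libraries for the 22 genes of smallest p, without Kcna1 and Gm13394, in 8 libraries on the standard diet (red, higher; blue, lower; Y, Y-linked genes expressed). The rows were chosen for groups that do not overlap, so the 3 knockout columns differ from the wild type columns by that choice; KC888LL, which the choice did not use, resembles the wild type columns.

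Among immediate early genes of neuronal activity, more were called lower than higher in the knockout. Of 21 tested, 8 fell and 2 rose, against 2.85% and 2.88% of all tested genes, and 11 did not pass the test. A positive log2 fold change was seen in 4 members, and the list's median was -0.56 (all tested genes, 0.00). Nr4a1, an orphan nuclear receptor, was at 17.4, 20.5 and 17.2 CPM in the knockout and 48, 39.8, 57.2 and 65.6 CPM in the wild type libraries (log2 fold change -1.52 ± 0.26, adjusted p = 0.00652, edgeR). Arc, whose protein shapes dendritic spines and AMPA receptor traffic, was at 15.9, 31.8 and 20 CPM in the knockout and 79.9, 73.2, 89.6 and 84.5 CPM in the wild type libraries (-1.86 ± 0.33, adjusted p = 0.00906). The highest knockout value of each was below the lowest wild type value. Nr4a3, a relative of Nr4a1, was at 39, 54.1 and 60.8 CPM in the knockout and 108, 104, 115 and 96.6 CPM in the wild type libraries (-1.05 ± 0.13, adjusted p = 0.00149). Egr4, a zinc finger factor, was at 4.2, 5.88 and 9.12 CPM in the knockout and 20.1, 19.2, 17.4 and 19.9 CPM in the wild type libraries (-1.60 ± 0.30, adjusted p = 0.00986). Egr1 (-1.65), Npas4 (-1.41), Junb (-0.66) and Egr2 also fell, Egr2 at 0.1 to 0.814 CPM in the knockout against 1.21 to 3.78 CPM. The 2 members that rose were Jun, a subunit of AP-1, at 185, 185 and 173 CPM in the knockout and 133, 131, 142 and 110.0 CPM in the wild type libraries (0.49 ± 0.08, adjusted p = 0.00242), and Atf3, a stress-induced factor, at 6.75, 5.18 and 1.2 CPM in the knockout and 0.693, 0.404, 0.695 and 0.457 CPM in the wild type libraries. Atf3 was lowest in KC893RL among the knockout libraries and still above every wild type library. The adjusted p of Atf3 was 0.04 (edgeR), 0.198 without KC872RL and 0.145 with Y-linked expression as a term. Atf3 stayed called in 1 of the 7 fits with 1 library less, and Jun in all 7. Without KC872RL 2 of the 10 calls of this list remained, and in the ketogenic diet libraries the list's median was -0.68.

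The start regions of Nr4a1, Nr4a3 and Egr4 are shown because these genes moved together and immediate early genes are known to carry sites for CREB, the cAMP response factor. They are RefSeq promoters on GRCm38.p6, 250 bases before to 50 after the start, 5′ to 3′ along the gene, with the short CREB site TGACG, or its reverse complement, in capitals.
Nr4a1, chr15:101266596-101266895, plus strand: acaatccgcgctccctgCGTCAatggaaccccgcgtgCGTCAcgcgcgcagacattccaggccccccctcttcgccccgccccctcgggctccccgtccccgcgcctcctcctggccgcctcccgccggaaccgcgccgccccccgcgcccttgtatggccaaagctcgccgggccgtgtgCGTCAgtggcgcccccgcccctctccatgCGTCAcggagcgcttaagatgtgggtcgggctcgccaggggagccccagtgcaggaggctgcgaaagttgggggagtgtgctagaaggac
Nr4a3, chr4:48045055-48045354, plus strand: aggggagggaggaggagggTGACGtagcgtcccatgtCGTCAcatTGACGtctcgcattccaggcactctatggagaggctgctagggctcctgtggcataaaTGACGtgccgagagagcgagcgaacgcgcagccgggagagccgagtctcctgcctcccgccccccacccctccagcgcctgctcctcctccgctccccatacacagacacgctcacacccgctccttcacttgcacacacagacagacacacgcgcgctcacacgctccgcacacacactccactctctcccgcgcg
Egr4, chr6:85513540-85513839, minus strand: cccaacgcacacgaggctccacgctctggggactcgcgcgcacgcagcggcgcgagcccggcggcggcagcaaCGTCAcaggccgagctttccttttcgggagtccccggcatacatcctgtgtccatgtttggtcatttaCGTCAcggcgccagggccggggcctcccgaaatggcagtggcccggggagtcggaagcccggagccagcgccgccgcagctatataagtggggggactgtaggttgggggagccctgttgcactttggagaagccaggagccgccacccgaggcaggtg
Promoters were found for 17 of the 21 immediate early genes. The short site was searched for only after the 2 longer motifs described next had no match in the called genes. It was present in 5 of 6 of those that fell, 1 of 2 that rose and 6 of 9 that were not called, against 21% of 27025 promoters. The full site TGACGTCA, which contains the short site, was in 0 of those that fell and in 2 of those not called (all promoters, 1.88%). The serum response element core, the CArG box, was in 0 of the 17 windows (all promoters, 1.57%). Both strands were searched, and a match is a description of the letters in the window.

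Most calls among genes of ion channels and synapses were falls of small size; of all tested genes, 2.85% were called lower and 2.88% higher. Of 30 sodium, calcium and HCN channel genes 8 fell and 0 rose (median log2 fold change -0.15). Of 32 glutamate receptor and scaffold genes 6 fell and 0 rose (-0.15). Of 40 potassium channel genes outside the Kv1 family 6 fell and 1 rose (-0.10), and of 26 synaptic vesicle and release genes 4 fell and 1 rose (-0.13). Positive log2 fold changes were seen in 5 of 30, 6 of 32, 12 of 40 and 5 of 26 genes of these lists. The CA1 and CA3 pyramidal cell lists had medians of -0.27 and -0.26, with 2 of 9 and 1 of 8 genes positive. Those of the dentate granule cell and interneuron lists were 0.02 and 0.05. Whether the falls followed these cell markers was not tested. Scn3b, an auxiliary sodium channel subunit, was at 129.9, 157 and 157 CPM in the knockout and 275, 262, 242 and 286 CPM in the wild type libraries (log2 fold change -0.85 ± 0.14, adjusted p = 0.00406, edgeR). Cacng8, a TARP that carries AMPA receptors to the synapse, was at 116, 121 and 141 CPM in the knockout and 167, 191, 176 and 165 CPM in the wild type libraries (-0.47 ± 0.08, adjusted p = 0.00292). These 2 genes and Cacng2, another TARP, fell without overlap of the groups. Kcnq3, a subunit of the M-current channel that damps excitability, was at 160.2, 162 and 154 CPM in the knockout and 241, 245, 212 and 261 CPM in the wild type libraries (-0.59 ± 0.11, adjusted p = 0.00581). Kcnj2, an inward rectifier, was the member of this potassium channel list that rose, at 20.4, 18 and 17.2 CPM in the knockout and 8.07, 11.6, 6.95 and 11.2 CPM in the wild type libraries (0.97 ± 0.21, adjusted p = 0.0158).

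At the excitatory synapse, Shank1, Shank2 and Shank3, scaffolds of the postsynaptic density, had log2 fold changes of -0.43 ± 0.09, -0.29 ± 0.06 and -0.38 ± 0.07 (adjusted p = 0.00752, 0.0124 and 0.00587, edgeR). Grin2a, an NMDA receptor subunit, stood at 346, 397 and 364 CPM in the knockout and 474, 465, 435 and 462 CPM in the wild type libraries (-0.32 ± 0.06, adjusted p = 0.00625). At the release site, Unc13a, which primes vesicles, was at 395, 408 and 453 CPM in the knockout and 535, 562, 568 and 593 CPM in the wild type libraries (-0.43 ± 0.07, adjusted p = 0.00297), and Rims1, an active zone scaffold, had -0.47 ± 0.08 (adjusted p = 0.00364). Every wild type library was above every knockout library for these genes. Syn3, a synapsin, was the member of the release list that rose (0.61 ± 0.17, adjusted p = 0.0483). Among Kv1 channels and their partners, Cntnap2, which clusters Kv1 channels beside the node, fell (-0.35 ± 0.09, adjusted p = 0.0338) and so did the scaffolds Dlg2 and Dlg4 (-0.27 and -0.25). These were 3 of the 14 genes of that list besides Kcna1, which is not counted because it chose the libraries, and none of them was a Kv1 channel gene itself. Leaving out any 1 of the 7 libraries ended the calls of Cntnap2, Dlg4 and Syn3. With Y-linked expression as a term 0 of the 3 genes of the Kv1 list stayed called, and Syn3 had an adjusted p of 0.12 (edgeR). Without KC872RL the calls that remained were 2 of 8 in the sodium and calcium channel list, 0 of 6 in the glutamate list, 1 of 7 in the potassium list, 0 of 3 in the Kv1 list and 2 of 5 in the release list.

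GABA signalling genes were called in both directions: of 23 tested, 2 rose and 3 fell (all tested genes, 2.88% and 2.85%). Gabrb2, a subunit of the GABA-A receptor, was at 184, 161 and 183 CPM in the knockout and 138, 139, 119.7 and 137 CPM in the wild type libraries (log2 fold change 0.40 ± 0.10, adjusted p = 0.0275, edgeR). Slc6a11, the transporter that clears GABA into astrocytes, was at 92, 112 and 114 CPM in the knockout and 152, 149, 154 and 132 CPM in the wild type libraries (-0.47 ± 0.12, adjusted p = 0.0392). Gabbr2, a subunit of the metabotropic receptor, was at 274, 293 and 315 CPM in the knockout and 343, 358, 373 and 369 CPM in the wild type libraries (-0.30 ± 0.07, adjusted p = 0.0199). Gabrb2 was higher and Gabbr2 lower in all 3 knockout libraries than in any wild type library. Of the list, 18 genes did not pass the test, and the median was 0.05. Of 16 interneuron identity genes 1 fell, Dlx1 (-0.47 ± 0.13, adjusted p = 0.046), and 0 rose. Without KC872RL 0 of the 5 GABA signalling genes stayed called, and without KC873RR or with Y-linked expression as a term the 3 falls and Dlx1 were no longer called.

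A few dentate granule cell genes and neuropeptides were called. Npy, an inhibitory peptide that granule cells are known to start expressing after seizures, was at 152, 42.3 and 91.1 CPM in the knockout and 15.2, 15.1, 19 and 19.1 CPM in the wild type libraries, with 18.3 CPM in KC888LL (log2 fold change 2.48 ± 0.57, adjusted p = 0.0325, edgeR). All 3 knockout libraries were above the wild type range, and they differed widely among themselves. C1ql2, a synaptic organiser that mossy fibres release, was at 80.6, 76.7 and 66.1 CPM in the knockout and 31.8, 34.3, 32.4 and 31.2 CPM in the wild type libraries (1.20 ± 0.17, adjusted p = 0.00242). Calb1, the calcium buffer calbindin, was at 73, 80.6 and 74.4 CPM in the knockout and 118, 114, 94.9 and 128 CPM in the wild type libraries (-0.59 ± 0.09, adjusted p = 0.00242). Dsp, a desmosome protein used as a granule cell marker, was at 28.4, 37.5 and 26.1 CPM in the knockout and 112, 136, 74.9 and 98.5 CPM in the wild type libraries (-1.78 ± 0.41, adjusted p = 0.0304). C1ql2 was raised and Calb1 and Dsp lowered with no overlap of the groups, while KC888LL lay near the wild type values, at 38.4, 129 and 118 CPM. The other 7 granule cell genes of 10 did not pass the test, and the list's median log2 fold change was 0.02. Of 14 neuropeptide genes Npy rose, Cck fell, and 11 had a positive log2 fold change. Of all tested genes, 2.88% were called higher and 2.85% lower. Without KC872RL the adjusted p was 0.179 for Npy and 0.159 for Dsp, and 0.0279 and 0.029 for C1ql2 and Calb1. With Y-linked expression as a term it was 0.0725 for Npy. Npy stayed called in 2 and Dsp in 1 of the 7 fits with 1 library less, and C1ql2 and Calb1 in all 7.

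All tested pan-reactive astrocyte genes had a positive log2 fold change in the knockout, but only 1 of 11 was called (all tested genes called higher, 2.88%). Gfap, the intermediate filament by which astrogliosis is recognised, was at 2313, 1338 and 610.3 CPM in the knockout and 392, 353, 368 and 294 CPM in the wild type libraries (log2 fold change 2.01 ± 0.63, adjusted p = 0.0875, edgeR). Vim, the filament that accompanies it, was at 243, 81.8 and 51.6 CPM in the knockout and 35.9, 34.9, 28.4 and 23.7 CPM in the wild type libraries (2.03 ± 0.61, adjusted p = 0.08). The groups did not overlap for either gene, but KC872RL had a far higher level than KC893RL. Serpina3n, a secreted protease inhibitor of reactive astrocytes with close relatives in its gene cluster, was at 258, 157 and 85.4 CPM in the knockout and 44.1, 45.2, 49.5 and 37.6 CPM in the wild type libraries and was the member of the pan-reactive list that rose (1.92 ± 0.47, adjusted p = 0.0388). The median of the 11 members was 1.35, and the groups did not overlap in 6 of them (all tested genes, 22.2%). The summed level of these genes was 2888, 1648 and 796 CPM in the knockout and 386 to 515 CPM in the wild type libraries. Without KC872RL Serpina3n had an adjusted p of 0.214, and with Y-linked expression as a term 0.128. Of 11 genes reported for the A1 reactive state 5 rose and 8 had a positive log2 fold change, with among the rises Fbln5, an elastic fibre protein (1.18 ± 0.24, adjusted p = 0.00873), and Serping1, an inhibitor of complement C1 (1.07 ± 0.26, adjusted p = 0.0215). Of 18 homeostatic astrocyte genes 3 rose: S100b, a calcium-binding protein, at 87, 75.1 and 69.1 CPM in the knockout and 57.3, 53, 54.1 and 55.1 CPM in the wild type libraries (0.49 ± 0.09, adjusted p = 0.00646), Mlc1 (0.39 ± 0.09, adjusted p = 0.0195) and the potassium channel gene Kcnj10 (0.52 ± 0.14, adjusted p = 0.0377). Aqp4, the water channel of astrocyte endfeet, was at 385, 283 and 176 CPM in the knockout and 190.4, 166, 146 and 149 CPM in the wild type libraries (adjusted p = 0.163). Without KC872RL 0 of the 5 A1 and 0 of the 3 homeostatic astrocyte calls remained, and with Y-linked expression as a term 2 and 1. The summed level of the homeostatic astrocyte list was 8193 to 9443 CPM in the knockout and 7668 to 8583 CPM in the wild type libraries.

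Many genes of microglia, complement and lysosomes were called, nearly all of them higher. Each share below can be read against 2.88% of all tested genes called higher and 2.85% called lower. Of 22 disease-associated microglia genes listed, Clec7a, Cst7 and Itgax were too low to test. Of the 19 tested, 9 were called higher and 1 lower (median log2 fold change 1.00). Of 18 complement genes 8 and 0 (0.96), of 20 lysosome genes 9 and 0 (0.34). Of 25 interferon and MHC class I genes 7 and 0 (0.59), and of 14 homeostatic microglia genes 5 and 0 (0.61). Lyz2, the lysozyme of macrophages and microglia, was at 12.4, 14 and 3.55 CPM in the knockout and 2.71, 2.29, 2.29 and 2.15 CPM in the wild type libraries (log2 fold change 2.08 ± 0.33, adjusted p = 0.00242, edgeR). Ctsz, a lysosomal cysteine protease, was at 48.8, 58.6 and 25.6 CPM in the knockout and 17.6, 19.2, 19.5 and 20.6 CPM in the wild type libraries (1.21 ± 0.19, adjusted p = 0.00292). In both genes KC872RL and KC873RR stood far above the wild type libraries and KC893RL a little above them. Gpnmb, a glycoprotein of phagocytes laden with debris, was at 17.8, 13.6 and 7.35 CPM in the knockout and 2.02, 1.88, 1.74 and 1.24 CPM in the wild type libraries (2.91 ± 0.45, adjusted p = 0.00364). C4b, a complement component of astrocytes that cannot be fully told apart from its near-identical copy C4a, was at 118, 129 and 67.5 CPM in the knockout and 36.9, 29.3, 38.1 and 24.4 CPM in the wild type libraries (1.71 ± 0.28, adjusted p = 0.00652). Among the other complement genes that rose were the 3 chains of C1q, C1qa (0.98), C1qb (1.24) and C1qc (1.27), which microglia make, and the receptor subunits Itgam and Itgb2.

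Ctsa, a lysosomal carboxypeptidase, was at 112, 109 and 83.5 CPM in the knockout and 70.3, 74.3, 66.2 and 74.2 CPM in the wild type libraries (log2 fold change 0.51 ± 0.08, adjusted p = 0.00242, edgeR). Grn, the lysosomal growth factor progranulin, was at 90.5, 89.9 and 53.4 CPM in the knockout and 44.9, 45.8, 48 and 45.8 CPM in the wild type libraries (0.76 ± 0.15, adjusted p = 0.0107). H2-K1, a class I MHC heavy chain that may share reads with other class I genes, was at 18.6, 17 and 8.17 CPM in the knockout and 5.42, 5.85, 6.11 and 5.16 CPM in the wild type libraries (1.38 ± 0.21, adjusted p = 0.00242), and its light chain B2m had 0.80 ± 0.13 (adjusted p = 0.00332). All wild type libraries were lower than all knockout libraries for these 4 genes. Ifit3, induced by interferon, was at 8.1, 7.1 and 5.76 CPM in the knockout and 2.65, 2.62, 2.5 and 2.94 CPM in the wild type libraries (1.38 ± 0.26, adjusted p = 0.00581), with KC893RL close to the other knockout libraries. Csf1r, the receptor that microglia need to survive, was at 135, 128 and 67.9 CPM in the knockout and 71.9, 66.8, 71.1 and 72.2 CPM in the wild type libraries (0.65 ± 0.17, adjusted p = 0.0387). The Csf1r level of KC893RL lay inside the wild type range. Lpl, a lipase counted among the disease-associated microglia genes and also expressed by neurons, was the member that fell (-0.39 ± 0.10, adjusted p = 0.0319). Leaving out any 1 of the 7 libraries ended the call of Lpl, which stayed called with Y-linked expression as a term.

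These rises were uneven between the knockout libraries. The summed level of the 14 homeostatic microglia genes was 574, 584 and 316 CPM in the 3 knockout libraries and 308 to 336 CPM in the wild type libraries, so KC893RL did not stand apart from the wild type. For the 19 disease-associated genes the sums were 3146, 3390.1 and 2299 CPM against 2211 to 2359.9 CPM. KC872RL and KC873RR were also the knockout libraries with Y-linked expression. As a difference of log2 CPM within each sex, the median over the homeostatic list was 0.79 with and -0.00061 without Y-linked expression, that of the disease-associated list 1.28 and 0.15, and that of complement 0.82 and 0.18. These medians are descriptions over 2 against 1 and 1 against 3 libraries, in which sex and animal cannot be told apart. With Y-linked expression as a term in the fit, 1 of 5 homeostatic, 7 of 10 disease-associated, 3 of 8 complement, 4 of 9 lysosome and 4 of 7 interferon and MHC genes stayed called, and without KC872RL 0, 3, 0, 2 and 2. Markers of other leukocytes and of border macrophages were mostly too low to test: 10 of 17 did not pass the filter, among them Cd3e and S100a8, and the list summed to 12.2 to 19.7 CPM in the knockout and 8.68 to 11.7 CPM in the wild type libraries. Of its 7 tested genes Ptprc, the phosphatase CD45 of all leukocytes, which microglia express too, rose (1.44 ± 0.29, adjusted p = 0.00826, edgeR), with 0.0933 without KC872RL and 0.055 with Y-linked expression as a term.

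**Figure D3:**
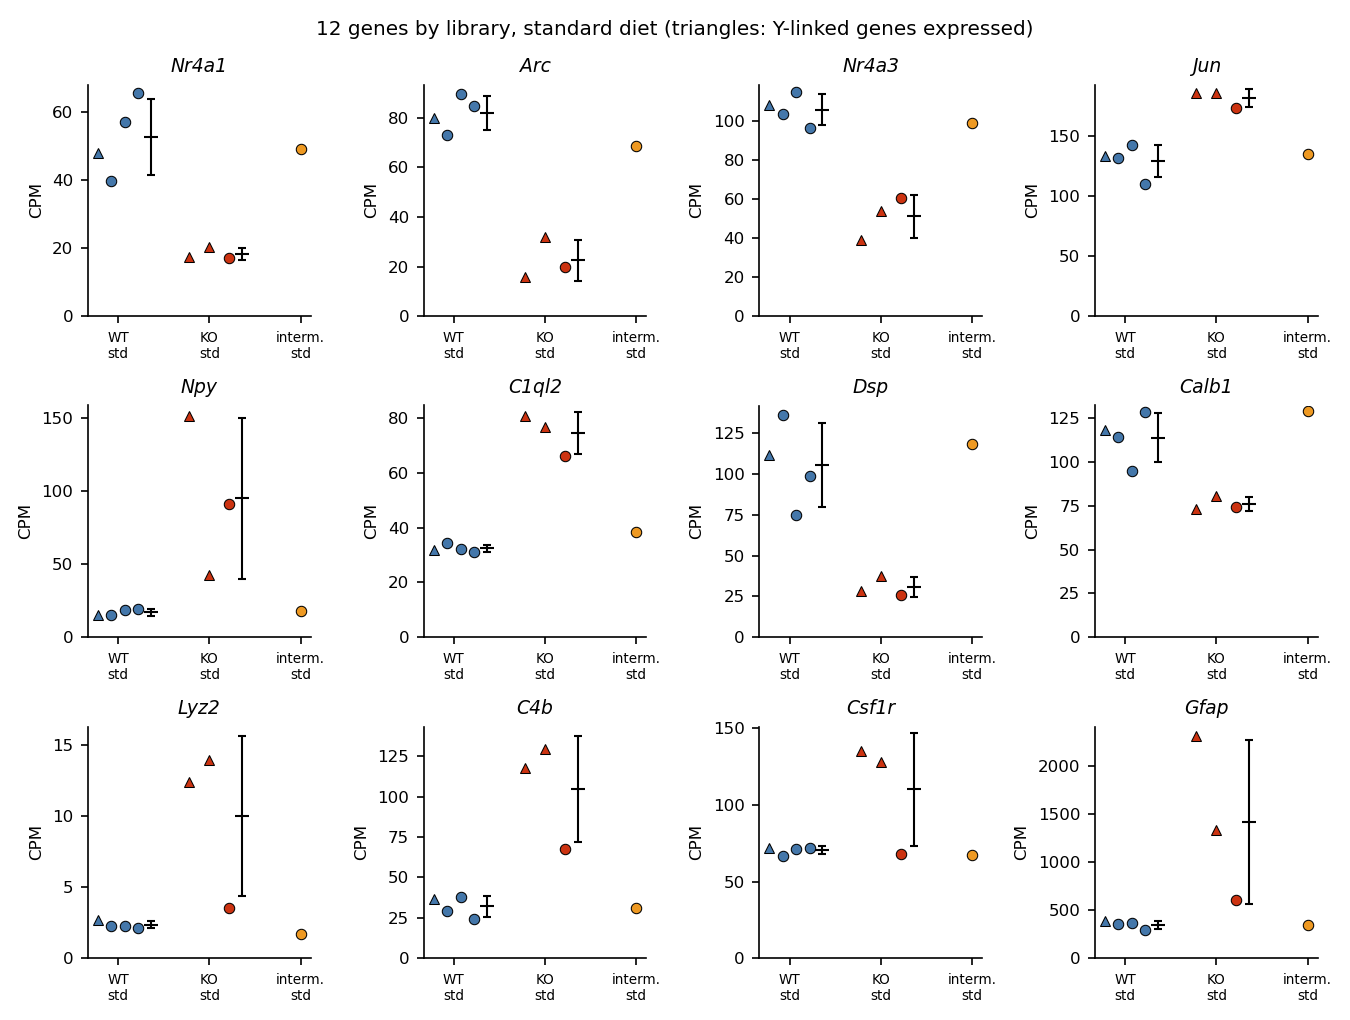
CPM of 12 genes in each standard diet library (WT, wild type; KO, knockout; interm., KC888LL; triangles, Y-linked genes expressed), with mean ± SD of the 4 wild type and 3 knockout libraries. Nr4a1, Arc, C1ql2, Dsp and Calb1 separate all 3 knockout libraries from the wild type alike, while in Lyz2, Csf1r and Gfap KC893RL (red circle) lies nearer to the wild type.

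Extracellular matrix, vessel and stress genes gave scattered calls, against 2.88% of all tested genes called higher and 2.85% called lower. Of 14 collagen genes 3 rose, led by Col18a1, the basement membrane collagen from which endostatin is cut, at 29.5, 24 and 18.7 CPM in the knockout and 5.29, 7.2, 6.46 and 3.53 CPM in the wild type libraries (log2 fold change 2.10 ± 0.33, adjusted p = 0.00373, edgeR). Col1a1 and Col5a2 had 1.09 ± 0.29 and 0.52 ± 0.14 (adjusted p = 0.0464 and 0.039). Thbs4, an astrocyte-secreted thrombospondin, was at 65.8, 47.8 and 36.9 CPM in the knockout and 15.9, 12.1, 13.1 and 17.5 CPM in the wild type libraries (1.77 ± 0.35, adjusted p = 0.0152), and with Sparc it made up the 2 rises among 27 matrix genes. Mmp14, a membrane protease of matrix, fell (-0.51 ± 0.11, adjusted p = 0.0105). Among 20 antioxidant genes 3 rose: Mt1, a metal-binding protein, at 153, 163 and 122 CPM in the knockout and 88.3, 70.3, 95.5 and 74.4 CPM in the wild type libraries (0.83 ± 0.17, adjusted p = 0.0131), Nfe2l2, the factor NRF2 (0.55 ± 0.13, adjusted p = 0.0182), and its target Hmox1, heme oxygenase (1.24 ± 0.30, adjusted p = 0.0237). Slc2a1, the glucose transporter of brain endothelium, was the endothelial gene of 14 that rose (0.38 ± 0.10, adjusted p = 0.0311). Without KC872RL 1 of 3 collagen, 1 of 3 matrix and 0 of 3 antioxidant calls remained, and with Y-linked expression as a term 2, 3 and 1. Slc2a1 was called in neither fit.

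In 12 lists no gene was called with edgeR. Their counts at an unadjusted p under 0.05 can be read against 3767 of all 17725 tested genes. Of 24 cholesterol synthesis genes 1 had a positive log2 fold change (ketogenic diet, 23). The median was -0.31 (ketogenic diet, 0.42), and 6 had an unadjusted p under 0.05 on the standard diet. Hmgcs1, an early enzyme of the pathway, was at 218, 126 and 225 CPM in the knockout and 285, 268, 259.8 and 267 CPM in the wild type libraries (adjusted p = 0.357). KC873RR was the lowest of the knockout libraries and KC893RL the highest, so the spread was wide. Myelin genes gave 0 of 16 at an unadjusted p under 0.05, with a median of -0.03, and cytosolic ribosomal proteins 5 of 79, with a median of 0.03. Of 17 proliferation genes 6 and of 12 oligodendrocyte precursor genes 6 had an unadjusted p under 0.05. Positive log2 fold changes were seen in 14 and 10 genes of these lists. The proliferation list summed to 195, 116 and 109 CPM in the knockout and 117 to 119 CPM in the wild type libraries. The precursor list summed to 1089, 519 and 599 CPM against 485 to 586 CPM. In both lists KC872RL stood highest. Gpr17, a marker of differentiating precursors, was at 385, 71.8 and 113 CPM in the knockout and 87.4, 73.7, 85.4 and 75.7 CPM in the wild type libraries (adjusted p = 0.175), high in KC872RL. The remaining lists without a call were the late activity effectors, CA3 pyramidal cell, neuroblast, mural, meningeal fibroblast, choroid plexus and blood lists, with 3, 4, 1, 1, 1, 0 and 1 such genes. With DESeq2, 2 oligodendrocyte precursor, 2 ribosomal protein, 1 late activity, 1 CA3 and 1 meningeal gene were called. The calls of the remaining lists can be read against the 5.73% of all tested genes called. Of 21 glycolysis genes Gapdh and Slc2a1 rose, of 21 fatty acid and ketone genes Hadhb rose (0.26). Of 77 nuclear respiratory chain genes Atp5d fell (-0.19), and of 12 mitochondrially encoded genes mt-Nd4 and mt-Cytb rose (0.23 and 0.20). Of each of 8 lists 1 member was called, in the circadian (18 genes, Nr1d1, -0.46), glucocorticoid (15 genes, Nr3c2, -0.47), chaperone (25 genes, Hspb8, 0.96), proteasome (38 genes, Psmb9, 1.11), A2 astrocyte (11 genes, Cd14, 1.56), CA1 (9 genes, Spink8, -0.53), thalamus (9 genes, Rgs16, 0.54) and striatum (8 genes, Rasd2, -0.70) lists. Of 37 cytokine, chemokine and receptor genes listed, 25 passed the low-count filter. Il1b, Tnf, Il6 and Ccl2 were among those too low to test. Of the 25 tested, Tgfbr2 and Il6st rose (0.51 and 0.29) and Tgfb2 and Cx3cl1 fell (-0.38 and -0.29). Of the energy, single and cytokine calls of this paragraph, Gapdh alone stayed called without KC872RL, and Gapdh, Nr1d1 and Nr3c2 did with Y-linked expression as a term. Leaving out any 1 of the 7 libraries ended the calls of Atp5d, mt-Cytb, Rgs16 and Cx3cl1.

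**Figure D4:**
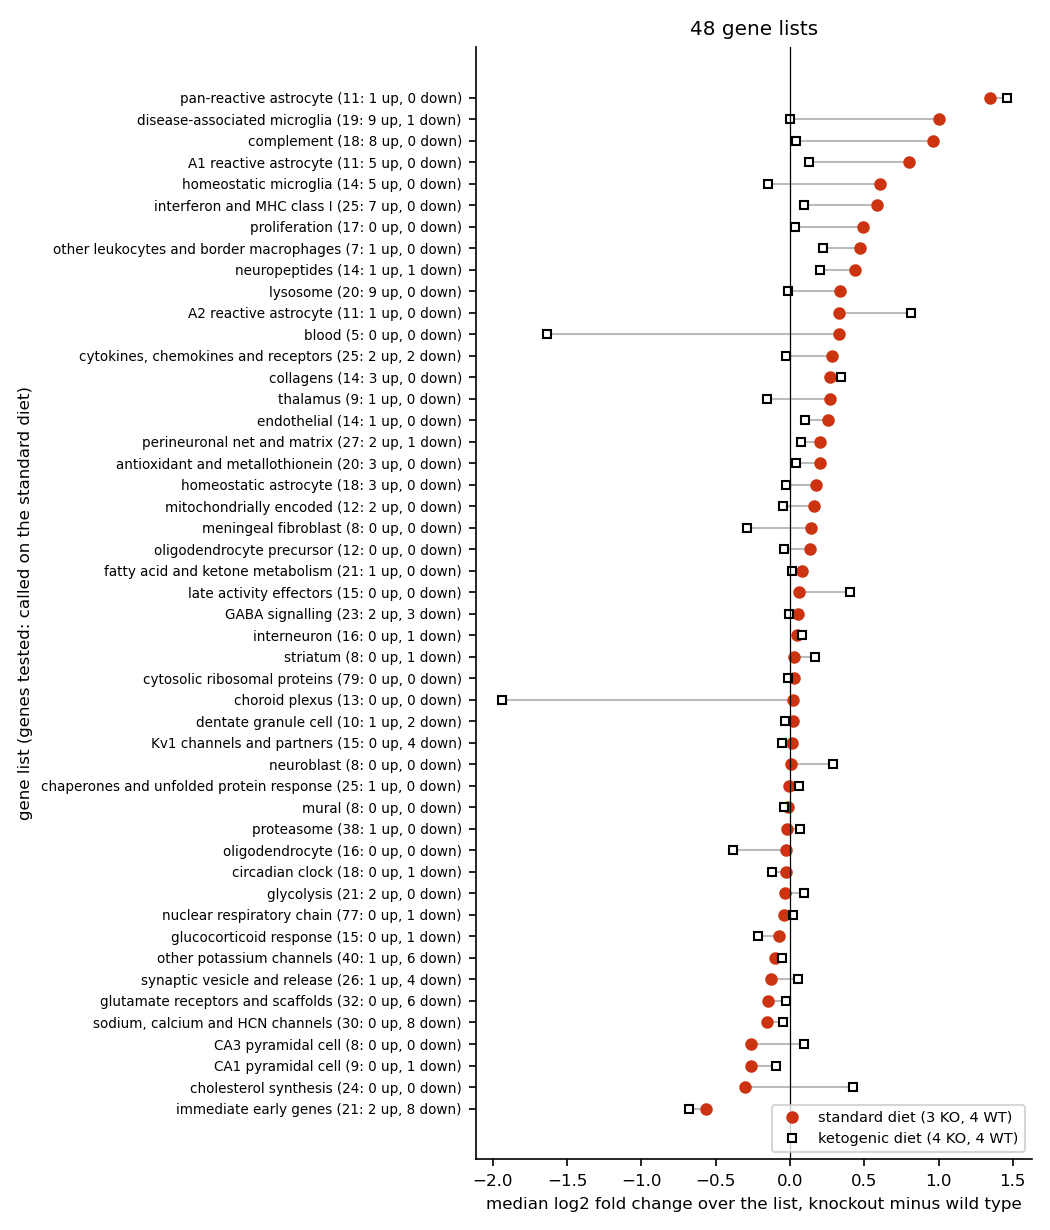
Median log2 fold change, knockout minus wild type, over each of the 48 gene lists on the standard diet (filled) and on the ketogenic diet (open), with the genes tested and called on the standard diet. The pan-reactive astrocyte, disease-associated microglia and complement lists had the 3 highest medians and the immediate early genes the lowest on the standard diet among the lists drawn; on the ketogenic diet the median was 1.46 for the pan-reactive astrocyte, 0.00 for the disease-associated microglia, 0.04 for the complement and -0.15 for the homeostatic microglia list.

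Among called genes with a mean of at least 1 CPM and groups that did not overlap, the largest log2 rises were those of Msx3 and Slc6a5, both close to 0 CPM in the wild type. Msx3, a homeobox gene of the dorsal neural tube, was at 5.35, 1.45 and 3.04 CPM in the knockout and 0, 0.135, 0.0695 and 0.131 CPM in the wild type libraries (adjusted p = 0.0109, edgeR). Slc6a5, the glycine transporter of glycinergic nerve endings, was at 5.85, 3.66 and 1.84 CPM in the knockout and 0.189, 0.269, 0.208 and 0.0653 CPM in the wild type libraries (adjusted p = 0.0348). Wild type libraries held so few reads of either gene that a fold change is not given, and both reached the mean of 1 CPM through the knockout libraries alone, so their place is a description. Spp1, the secreted phosphoprotein osteopontin, lay outside these conditions and was singled out after its values were seen: it was called higher (adjusted p = 0.0125) at 21.9, 13 and 0.443 CPM in the knockout and 0.504, 0.404, 0.556 and 0.0653 CPM in the wild type libraries, with KC893RL inside the wild type range. Mpeg1, a pore-forming protein of macrophages, was at 41.9, 68.2 and 8.49 CPM in the knockout and 6.55, 7.2, 4.86 and 5.75 CPM in the wild type libraries (log2 fold change 2.70 ± 0.50, adjusted p = 0.011), with KC893RL far below the other 2 knockout libraries. Among the largest falls were the noncoding genes 6330420H09Rik, at 0.25, 0.873 and 0.887 CPM in the knockout and 3.53, 3.63, 3.27 and 2.87 CPM in the wild type libraries (adjusted p = 0.00372), and 1700016P03Rik, at 0.9, 1.57 and 0.57 CPM in the knockout and 4.47, 3.7, 5.98 and 4.7 CPM in the wild type libraries (adjusted p = 0.014), and Rtl3, a gene derived from a retrotransposon, at 0.35, 0.814 and 1.01 CPM in the knockout and 2.96, 3.16, 2.5 and 2.42 CPM in the wild type libraries (adjusted p = 0.0252). 6330420H09Rik and Rtl3 reached the mean of 1 CPM through the wild type libraries alone, so their place among the falls is also a description. Without KC872RL the adjusted p was 0.0692 for Msx3, 0.164 for Slc6a5, 0.0607 for Mpeg1, 0.106 for 1700016P03Rik and 0.165 for Rtl3, and 6330420H09Rik stayed called at 0.0368.

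In the ketogenic diet libraries, which share no library with this comparison, 5 of 17725 genes were called between the genotypes (0.0282%) and 1716 had an unadjusted p under 0.05. The genes called on both diets were Kcna1, Gm13394, Gapdh and Npas4, each in the same direction, and the fifth was Btg2. Of the 511 genes that rose on the standard diet, 347 had a positive log2 fold change on the ketogenic diet (67.9%), and of the 505 that fell, 406 had a negative one (80.4%), against 57.3% of all tested genes with the same sign on both diets. Their median log2 fold changes on the ketogenic diet were 0.08 and -0.09. Since these genes were selected by their test on the standard diet, the medians of the 2 diets are not a like comparison. The interaction of genotype and diet, which tests the difference of the 2 differences, called 0 genes with edgeR at a smallest adjusted p of 0.0827, and 2035 genes had an unadjusted p under 0.05. Gene by gene, Nr4a1 and Arc had -1.33 and -1.38 on the ketogenic diet (adjusted p = 0.11 and 0.183), Npy and C1ql2 1.45 and 0.74 (adjusted p = 0.434 and 0.183), and Lyz2 and Csf1r 0.21 and -0.10 (adjusted p = 0.88 and 0.862). Gfap was at 2013, 289, 1058 and 295 CPM in the knockout and 307, 326, 320.1 and 338 CPM in the wild type libraries on that diet (adjusted p = 0.459). The 4 knockout libraries on the ketogenic diet had no Y-linked expression, so diet and sex are mixed in any such comparison of the knockouts.

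**Figure D5:**
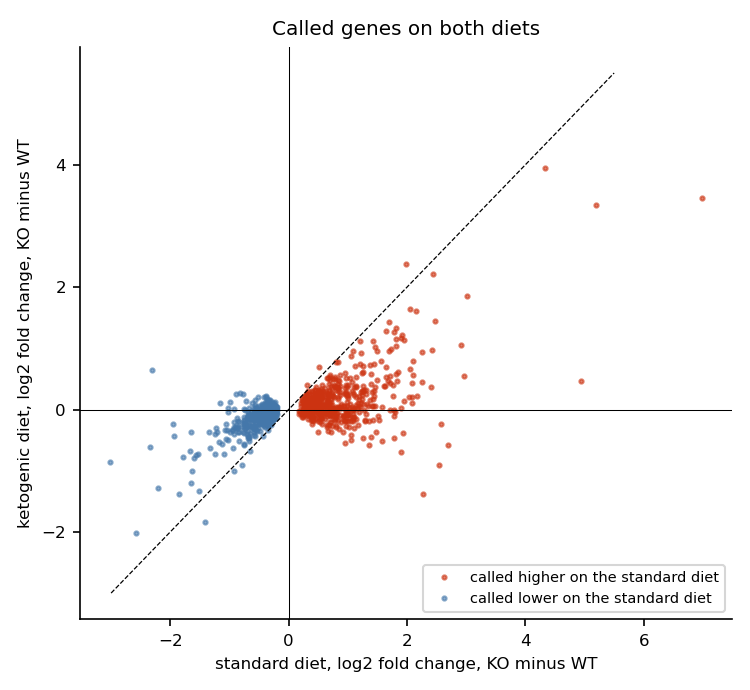
Log2 fold change, knockout minus wild type, of genes called on the standard diet (x axis; Kcna1 and Gm13394 left out) against the same genes on the ketogenic diet (y axis); red, called higher, blue, called lower; dashed line, equal values. Most points lie nearer to 0 on the y axis than on the x axis.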

How the data were processed

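The authors deposited 1 table of raw counts per gene for 16 libraries; per the submitters' processing notes the build was mm10 and DESeq2 was used, in a role not given, and the aligner, counting program and use of strand are not given in the sources used here. Columns name genotype, diet and an animal tag but no replicate number, so each was assigned to its group only.

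Counts of 15 libraries (KC888LL left out) were fitted with edgeR 4.0.16 in R 4.3.3: filterByExpr by group (17725 of 49315 genes kept), TMM scaling, a robust quasi-likelihood model with 1 coefficient per group and 11 residual degrees of freedom, two-sided tests, and Benjamini-Hochberg adjustment over all tested genes. The ketogenic libraries share in the estimate of spread. Errors are standard errors from the F statistic. The scripts were tested on simulated data. Positions are those of GENCODE M21 on GRCm38, which held 48970 of the identifiers. Labels do not say that libraries come from separate litters, and p-values measure the spread between these animals. Replicates were not alike within counting noise. The chi-square per gene was 9.7 to 12.2 in pairs of knockout libraries and 4.6 to 6.41 in pairs of wild type libraries. The fit uses 1 estimate of spread per gene for all groups, and the effect of unequal spread on the p-values was not tested.

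The members, the 48 gene lists and the naming rule were chosen with earlier results of these data known. Named were Kcna1, Gfap, Vim, Serpina3n and Aqp4; for rises and for falls, the 12 calls with the lowest p and the 5 with the largest fold change, given a mean of at least 1 CPM and groups that do not overlap; and per list and direction the 4 calls with the lowest p, or, with none called, the 2 of highest mean. Vwf and other called list members outside this rule were added after their values were seen. Alternatives were RLE and upper-quartile scaling, other low-count filters, DESeq2 1.42.0, limma-voom (limma 3.58.1), no robust estimation, only the 2 groups, KC888LL kept, Y-linked expression (summed level of 4 genes above 100 CPM) as a term, each library left out, and, chosen after seeing the data, only libraries without Y-linked expression. Some genes that met the rule are not reported here.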

Additional observations from a re-analysis of the deposited data

Results flagged for a closer look

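Among 149 named genes, 4 had a wild type library on the standard diet that lay apart from the other 3 by Dixon's criterion at the 95% level, which chance meets in about 1 in 20 groups. Tgm2 was at 7.54 CPM in KC894RLL, below the others at 8.2 to 8.29 CPM. In KC897RR, Rpl4 was at 345 CPM, below 355 to 356 CPM, and Gabrb2 at 120 CPM, below 137 to 139 CPM. In the same library Spink8 was at 10.4 CPM, above 8.7 to 8.88 CPM. The knockout group has 3 libraries and was not screened this way.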

How the results depend on the processing

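No paired analysis was possible because the columns carry animal tags and no replicate numbers. On the standard diet the count of 1016 became 1994 when the 2 groups were fitted alone, 485 with Y-linked expression as a term, 1 with KC888LL kept and 2 in the libraries without Y-linked expression, where 1 knockout library is assumed to vary like the rest; leaving out 1 library gave 127 (without KC872RL) to 1095 (without KC893RL), with 422 without KC873RR and 457 to 548 without a wild type library. Other scalings, filters and tests gave 886 to 1508. Upper-quartile scaling moved the split to 594 higher and 382 lower. On the ketogenic diet 5 calls became 31 with no low-count filter, 74 with DESeq2, 8 with limma-voom, 11 without robust estimation, 3 with KC888LL in the fit, and 4 to 34 with 1 library left out. Of the 121 called genes other than Kcna1 that met the naming rule, 41 stayed called without KC872RL, 75 without KC873RR, 107 without KC893RL, 76 with the Y-linked term and 0 with KC888LL. The called named gene that changed sign was Csf1r, at -0.045 in the libraries without Y-linked expression. The causes were not tested. Shallow genes such as Egr2 and Msx3, with few reads in 1 group, are the least certain.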
